A study of Mus musculus with 12 samples.

Results

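Interferon response genes are genes that interferons switch on, together with the receptors and regulators of the interferon pathway. Expression of 50 such genes, out of 48440 features in the table, was examined in Deiters' cells and pillar cells of the adult mouse organ of Corti. The genes were listed by symbol, and they were chosen because many of them had been seen to be higher in Deiters' cells in these same data. Their differences between the cell types are therefore given as a description, and no p-value is printed for them. Where the text says that a listed gene was called, this gives its side of a fixed threshold and is no independent test.

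Deiters' cells and pillar cells are supporting cells, which hold the sensory hair cells in place. Both came from CBA/J mice aged 28 to 32 days, with no treatment and no genetic change named. The organ of Corti was briefly digested and triturated, and single cells recognised by their shape were drawn up one by one with a suction pipette. Each of the 3 libraries of Deiters' cells and each of the 3 libraries of pillar cells was made from about 1000 such cells, and each library was sequenced in 2 lanes. Per the study's methods the cells of a library were pooled from several mice, and both cell types were collected in this way for biological replicates. The labels do not say which libraries of the 2 cell types came from the same mice.

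Type I interferons bind a receptor made of Ifnar1 and Ifnar2, and interferon gamma binds Ifngr1 and Ifngr2. The kinases Jak1, Jak2 and Tyk2 then phosphorylate transcription factors, and a complex that includes Stat2 and Irf9 binds the interferon-stimulated response element (ISRE) in the promoters of its targets. Another sequence, the gamma-activated site (GAS), serves the response to interferon gamma. The targets encode sensors of foreign nucleic acid, proteins that block translation or destroy RNA, and GTPases that attack viruses or the vacuoles of intracellular parasites.

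The promoters of these genes were searched for the letters of the ISRE. Promoters were taken from RefSeq on GRCm38.p6, from 250 bases before to 50 bases after the start of each gene. Of the 50 genes, 39 had an entry. The ISRE was searched on both strands as GAAA, any 2 bases and GAAA, and overlapping matches were joined. It was found in 23 of the 39 promoters (59%), in 36 of 107 promoters of other interferon pathway genes (33.6%) and in 943 of the 27025 promoters in the table (3.49%). The following stretches of 60 bases lie before the start of the gene, on the strand of the gene, and the capitals mark the matches to the ISRE, which read TTTC, any 2 bases and TTTC where they lie on the other strand. They show members of the Ifit, Isg15, Oas and GTPase groups, 1 gene that was not detected (Oas3) and 1 that was higher in pillar cells (Gbp3).
Ifit1: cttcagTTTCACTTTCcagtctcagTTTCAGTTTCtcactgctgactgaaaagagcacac
Ifit3: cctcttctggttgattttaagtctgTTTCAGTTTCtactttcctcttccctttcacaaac
Ifit3b: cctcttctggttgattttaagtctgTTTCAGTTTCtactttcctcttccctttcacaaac
Isg15: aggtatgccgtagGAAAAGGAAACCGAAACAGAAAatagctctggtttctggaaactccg
Oas1a: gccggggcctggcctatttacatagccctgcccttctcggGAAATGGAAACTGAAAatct
Oas1g: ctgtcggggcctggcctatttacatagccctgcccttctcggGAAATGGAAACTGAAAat
Oas1c: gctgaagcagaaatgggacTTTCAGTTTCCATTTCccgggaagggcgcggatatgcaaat
Oas3: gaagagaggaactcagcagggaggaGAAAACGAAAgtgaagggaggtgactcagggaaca
Tgtp2: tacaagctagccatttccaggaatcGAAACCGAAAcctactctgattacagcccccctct
Gbp3: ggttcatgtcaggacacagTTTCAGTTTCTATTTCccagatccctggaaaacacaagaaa

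The stretches of the Ifit genes lie on chromosome 19, at chr19:34640779-34640838 for Ifit1, at chr19:34583382-34583441 for Ifit3 and at chr19:34607778-34607837 for Ifit3b, all on the plus strand. The stretches of Ifit3 and Ifit3b were identical. That of Isg15 is at chr4:156200850-156200909 on the minus strand. Those of the Oas genes lie on the minus strand of chromosome 5, at chr5:120907526-120907585 for Oas1a, chr5:120887614-120887673 for Oas1g, chr5:120812588-120812647 for Oas1c and chr5:120777700-120777759 for Oas3. Oas1a and Oas1g had the same run of capitals. Tgtp2 is at chr11:49064248-49064307 on the minus strand and Gbp3 at chr3:142559980-142560039 on the plus strand. A match to these letters is a description of the sequence and does not show that a factor binds there. The lack of a match in this window does not show that a gene has no such element.

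The GAS, searched on both strands as TTC, any 3 bases and GAA, was found in 15 of the 39 promoters (38.5%), in 18 of 107 promoters of other pathway genes (16.8%) and in 2288 of all promoters (8.47%). The 2 motifs can overlap, since the ISRE on the minus strand ends in TTC. Within the window before the start only, the ISRE was present in 19 of the 39 promoters (48.7%) and in 821 of all promoters (3.04%). The receptors Ifnar1 and Ifnar2 held a GAS match and no ISRE match, as did Irf1, Ifit2 and Isg20. Ifngr1, Ifngr2, Irf3, Irf7, Irf9, Oasl1, Oasl2, Trim25, Xaf1 and Ifi44 held neither.

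**Figure D1:**
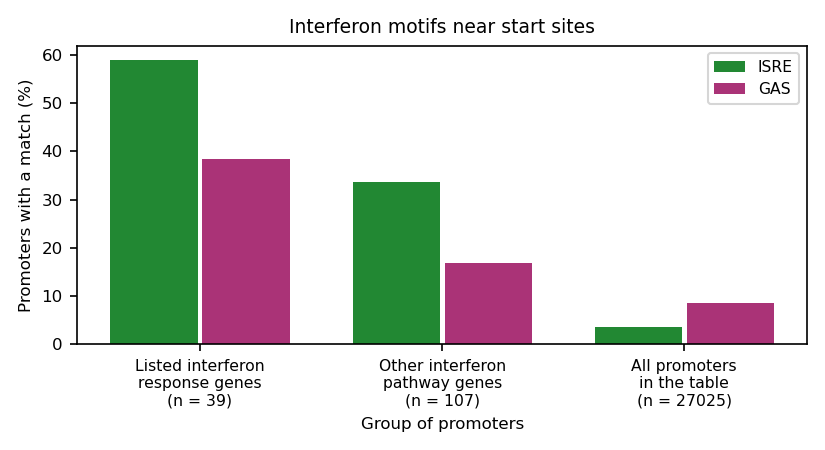
Share of promoters (%, vertical axis) with at least 1 match to the ISRE (green) or the GAS (purple) from 250 bases before to 50 bases after the gene start, for the 39 listed interferon response genes with an entry, 107 other interferon pathway genes and all 27025 promoters. The ISRE bar stands at 59% for the listed genes, 33.6% for the other pathway genes and 3.49% for all promoters.

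Depth was similar in all libraries. The deposited values are RPKM, which divide the reads of a gene by its transcript length and by the mapped reads of the lane, so levels of different genes can be compared per length. The reads behind them were recovered from their steps and came to 18641354 to 21557584 per library, so that 3 reads in a transcript of 1 kb, summed over a cell type, stand for 0.0504 RPKM in Deiters' cells and 0.0513 RPKM in pillar cells. The 11 supporting cell markers summed to 44900 to 48400 RPKM in Deiters' cells and 24800 to 25500 RPKM in pillar cells. S100a1 and Fbxo2 made up most of this. Without them the sum was 2580 to 2660 RPKM in Deiters' cells and 1620 to 1640 RPKM in pillar cells. Most of the remainder was Gjb2 and Gjb6. Gjb2 had a mean of 1151.7 RPKM in Deiters' cells and 773.9 RPKM in pillar cells. Gjb6 had a mean of 1386.2 RPKM in Deiters' cells and 712.5 RPKM in pillar cells. By library, 4 of the 11 were higher in Deiters' cells (1 called) and 7 higher in pillar cells (Sox2, Jag1 and Lfng called). Of the 4 pillar cell markers, S100b and S100a6 were called higher in pillar cells and Npy, at 0.406 ± 0.27 RPKM in Deiters' cells and listed at 0 in pillar cells, was called higher in Deiters' cells. Of the 4 Deiters' cell markers, Gfap was called higher in pillar cells, at 0.243 ± 0.0719 RPKM in Deiters' cells and 0.812 ± 0.0704 RPKM in pillar cells (SD, n = 3 each), and Lgr5 was called higher in Deiters' cells. Lgr5 was 5.10, 5.38 and 5.52 RPKM in Deiters' cells against 1.61, 1.82 and 1.53 RPKM in pillar cells. Hes5 was listed at 0 in all Deiters' cell libraries, and Ngfr was at most 0.124 RPKM in Deiters' cells and 0.0305 RPKM in pillar cells. The study describes Ngfr as a gene found mainly in developing pillar cells. Its antibody staining, which measures protein and not RNA, also showed NGFR in adult pillar cells. The 8 hair cell markers summed to 11 to 12 RPKM in Deiters' cells and 137 to 144 RPKM in pillar cells, and all 8 were called higher in pillar cells.

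Summed over the 50 genes, the level was 849, 858.1 and 846.6 RPKM in Deiters' cells, against 464.7, 467.2 and 464.8 RPKM in pillar cells. Each library of Deiters' cells lay far above each library of pillar cells. A mean above 0.1 RPKM was reached by 47 of the 50 genes in Deiters' cells and by 43 in pillar cells. A mean above 1 RPKM was reached by 39 genes in Deiters' cells and 33 in pillar cells, and a mean above 10 RPKM by 20 genes in Deiters' cells and 13 in pillar cells. Replicate libraries were close, with a median coefficient of variation of 4.59% in Deiters' cells (0.851% to 21.6%) and 6.9% in pillar cells (0.979% to 35.9%) over the genes above 1 RPKM in that cell type. In whole-cell-type RNA of this kind, fewer expressing cells and less RNA per cell cannot be told apart.

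To be tested, a gene needed a mean of over 0.1 RPKM in at least 1 of the cell types. Of the 50 genes 47 passed, and Oas2, Oas3 and Gbp2 did not. A call needed an adjusted p of at most 0.01 and at least a 2-fold difference on the log2(RPKM + 0.1) scale, in limma with Benjamini-Hochberg adjustment over all 17188 genes tested. By this rule 25 of the listed genes were called higher in Deiters' cells, where 14.0% of all genes tested were, and 2 were called higher in pillar cells, where 14.7% of all genes were. The remaining 20 were not called. All 3 Deiters' cell libraries lay above all 3 pillar cell libraries for 37 of the listed genes (38.9% of all genes tested), the reverse held for 6 (37.6%), and the libraries overlapped for 7. The median difference on the log2(RPKM + 0.1) scale was 1.08 over the listed genes tested and -0.00 over all genes. Because the genes were chosen on this contrast, these counts describe the list and support nothing further.

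**Figure D2:**
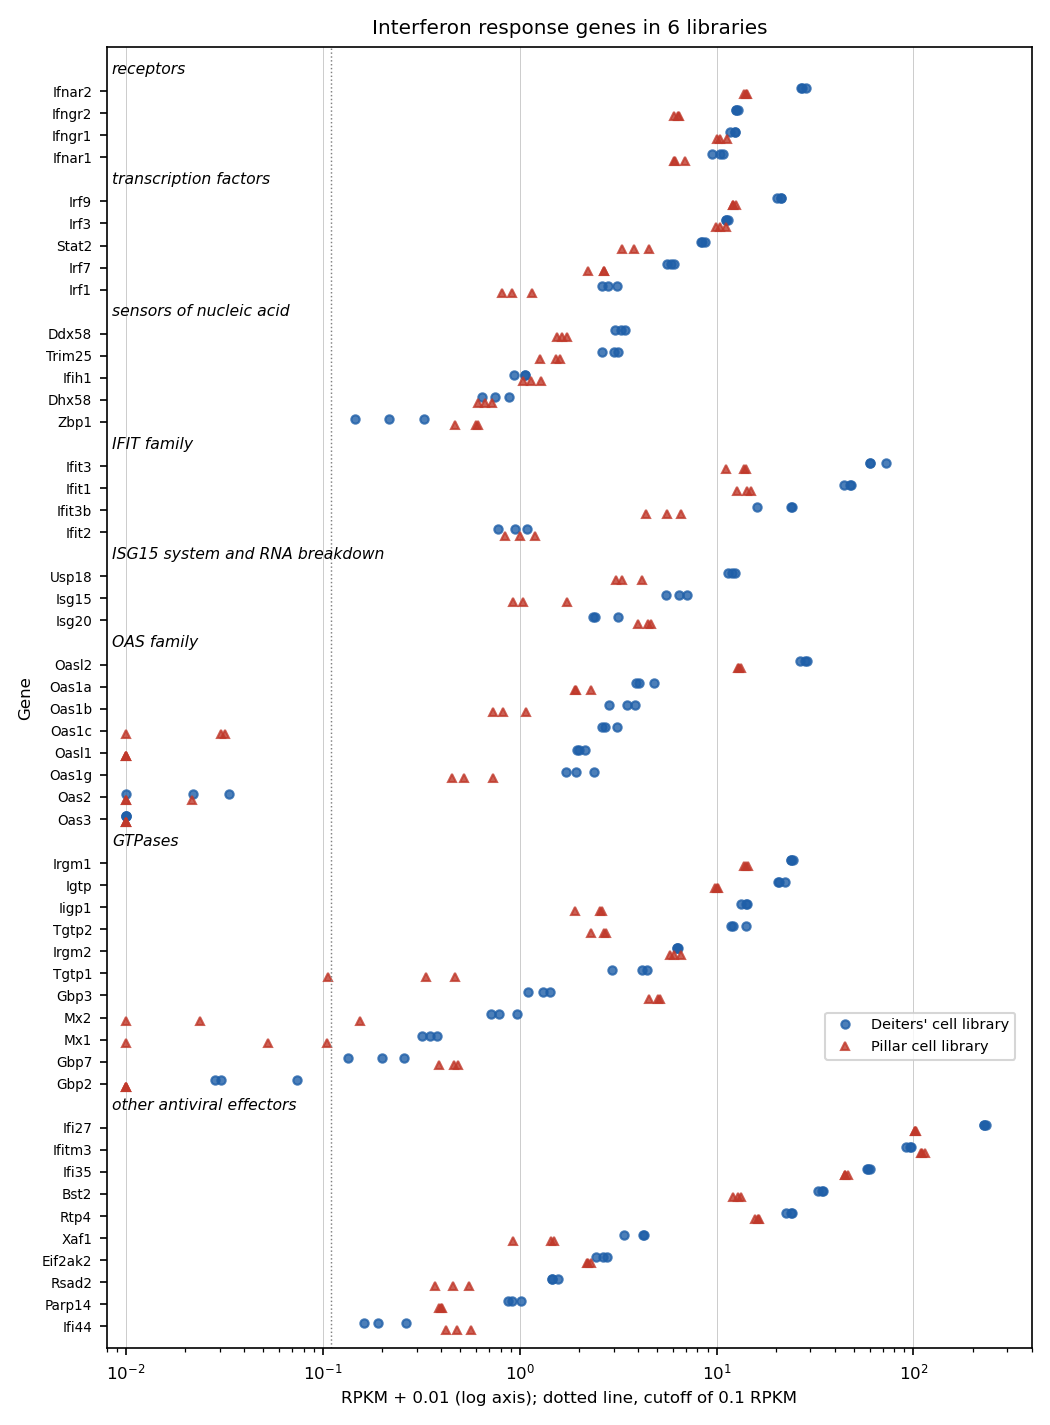
Level of each of the 50 genes in each library, as RPKM + 0.01 on a log axis, grouped by role and ordered by the mean in Deiters' cells; blue circles are the 3 Deiters' cell libraries, red triangles the 3 pillar cell libraries, and the dotted line is the cutoff of 0.1 RPKM. The blue points lie to the right for 37 genes, the red points for 6 genes such as Gbp3, Isg20 and Ifitm3.

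The receptors came first in the pathway and all 4 were expressed in both cell types. Ifnar2, the ligand-binding chain that carries Stat2, was 27.3, 28.4 and 26.9 RPKM in Deiters' cells against 14.3, 13.7 and 14.1 RPKM in pillar cells, a ratio of 1.96. Ifnar1, the partner chain, was 10.8, 9.53 and 10.4 RPKM in Deiters' cells against 6.88, 6.09 and 6.13 RPKM in pillar cells, a ratio of 1.61. The libraries of the 2 cell types were apart for both chains. Of the receptor for interferon gamma, Ifngr2 was 12.8, 12.6 and 12.5 RPKM in Deiters' cells against 6.05, 6.40 and 6.42 RPKM in pillar cells, a ratio of 2.01. Its ligand-binding partner Ifngr1 was 11.7, 12.3 and 12.4 RPKM in Deiters' cells against 11.3, 10.4 and 10.04 RPKM in pillar cells, a ratio of 1.15. Ifngr1 thus differed least, with its libraries closest together, and no receptor reached 2-fold on the log2(RPKM + 0.1) scale used for calls.

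The 3 receptor genes with the larger ratios are neighbours. On mm10, Ifnar2 (chr16:91372783-91405589), Ifnar1 (chr16:91485238-91507441) and Ifngr2 (chr16:91547072-91565623) lie in a row with Il10rb (chr16:91406164-91425834), which encodes a chain shared by the receptors for interleukin 10 and type III interferons. Il10rb was 36.6 ± 1.37 RPKM in Deiters' cells and 25.7 ± 0.65 RPKM in pillar cells (SD, n = 3 each), 1.43-fold higher (limma adjusted p = 3.4e-05). The next gene, Tmem50b, was 68.5 RPKM in Deiters' cells and 45.2 RPKM in pillar cells, a ratio of 1.52, and further along the ratios varied, with 0.979 for Gart, 0.699 for Son and 1.60 for Itsn1. These neighbours were looked at after the values of the receptors were seen. Ifngr1 lies on chromosome 10.

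Of the transcription factors, 3 of 5 passed the call, all higher in Deiters' cells, where 14.0% of all genes tested were called. With a pseudocount of 1 RPKM all 3 calls ended, at log2 differences of 0.97 for Stat2, 0.98 for Irf1 and 0.96 for Irf7. Stat2 was 8.76, 8.45 and 8.31 RPKM in Deiters' cells against 3.30, 3.79 and 4.54 RPKM in pillar cells, a ratio of 2.19. Its partner Irf9 was 21.1, 20.2 and 21.3 RPKM in Deiters' cells against 12.1, 12.04 and 12.6 RPKM in pillar cells, a ratio of 1.71. Both genes were thus higher in every Deiters' cell library. Irf1, which is induced by interferon gamma, was 3.13, 2.62 and 2.81 RPKM in Deiters' cells against 1.15, 0.908 and 0.80 RPKM in pillar cells, a ratio of 2.997. Irf7, which is itself induced by interferon and drives interferon genes, was 5.59, 5.86 and 6.06 RPKM in Deiters' cells against 2.67, 2.67 and 2.23 RPKM in pillar cells, a ratio of 2.31. Irf3, which is present without stimulation and is activated by phosphorylation, had overlapping libraries, with 11.3 ± 0.177 RPKM in Deiters' cells and 10.5 ± 0.61 RPKM in pillar cells (SD, n = 3 each). Irf3, Irf7 and Irf9 overlap other annotated genes on the genome (Bcl2l12, Phrf1 and Rnf31), and the strand setting of the mapping was not given in the sources used here.

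The sensors of nucleic acid differed in both directions, with a median log2 difference of 0.15. Ddx58, which encodes RIG-I, a sensor of RNA ends, was 3.23 ± 0.188 RPKM in Deiters' cells and 1.63 ± 0.0923 RPKM in pillar cells (SD, n = 3 each), a ratio of 1.99. Trim25, a ubiquitin ligase that acts on RIG-I, was 2.92 ± 0.279 RPKM in Deiters' cells and 1.46 ± 0.173 RPKM in pillar cells, a ratio of 2.01. Both were higher in every Deiters' cell library without passing the call. Ifih1, which encodes MDA5, a sensor of long double-stranded RNA, was 0.926, 1.06 and 1.06 RPKM in Deiters' cells against 1.27, 1.13 and 1.03 RPKM in pillar cells, with overlap. Dhx58, which encodes the regulator LGP2, also overlapped, at 0.747 ± 0.118 RPKM in Deiters' cells and 0.659 ± 0.0551 RPKM in pillar cells. Zbp1, a sensor of left-handed nucleic acid, was 0.315, 0.206 and 0.137 RPKM in Deiters' cells against 0.604, 0.460 and 0.591 RPKM in pillar cells. Zbp1 was called higher in pillar cells, close to the threshold, and leaving out Deiters' cell library 2 or 3 or any 1 pillar cell library ended the call.

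The Ifit proteins bind RNA that lacks host marks at its end and block its translation. Of the 4 genes, which lie together on chromosome 19, 3 were several times higher in Deiters' cells and 1 was not. Ifit3 was 60.4, 60.2 and 72.1 RPKM in Deiters' cells against 14.1, 11.1 and 13.7 RPKM in pillar cells, a ratio of 4.95. Ifit1 was 44.4, 47.5 and 48.2 RPKM in Deiters' cells against 12.7, 14.995 and 14.3 RPKM in pillar cells, a ratio of 3.33. Ifit3b was 23.9, 24.1 and 16.0 RPKM in Deiters' cells against 4.35, 6.62 and 5.61 RPKM in pillar cells, a ratio of 3.86. For these 3 genes the lowest Deiters' cell library was above the highest pillar cell library. Ifit2, their neighbour at chr19:34550694-34576419, was 0.768, 0.939 and 1.08 RPKM in Deiters' cells against 0.833, 1.00 and 1.19 RPKM in pillar cells, and the libraries overlapped. In the promoter search Ifit1, Ifit3 and Ifit3b held a match to the ISRE letters, and Ifit2 held none in the window searched. Whether this goes with their levels was not tested.

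Of the Isg15 system, Isg15 encodes a ubiquitin-like protein that is joined to other proteins, and Usp18 encodes the protease that removes it and also damps the type I receptor. Isg15 was 7.06, 6.45 and 5.53 RPKM in Deiters' cells against 0.917, 1.73 and 1.03 RPKM in pillar cells, a ratio of 5.17. Usp18 was 12.3, 11.5 and 12.04 RPKM in Deiters' cells against 3.28, 3.07 and 4.15 RPKM in pillar cells, a ratio of 3.41. Both were thus higher in every Deiters' cell library. Isg20, an exonuclease that breaks down RNA, went the other way, at 2.39, 3.15 and 2.34 RPKM in Deiters' cells against 3.99, 4.62 and 4.46 RPKM in pillar cells, 1.66-fold higher in pillar cells and not called.

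The Oas enzymes make short chains of adenylate with an unusual linkage when they meet double-stranded RNA, and these chains trigger the breakdown of RNA. The genes lie in 2 groups on chromosome 5. All 6 members that could be tested were called higher in Deiters' cells, where 14.0% of all genes tested were called. Oasl2 was the most abundant, at 28.2, 26.6 and 28.8 RPKM in Deiters' cells against 13.2, 12.9 and 13.0 RPKM in pillar cells, a ratio of 2.13. Oas1b, which is truncated in many laboratory strains, was 3.52, 3.86 and 2.83 RPKM in Deiters' cells against 0.721, 0.813 and 1.07 RPKM in pillar cells, a ratio of 3.91. Oas1a had a ratio of 2.09 and Oas1g one of 3.59. These genes share sequence, so their separate calls are uncertain. The call for Oas1a ended without Deiters' cell library 3, without pillar cell library 1 and without pillar cell library 2.

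The widest gaps among the 50 genes were in this family. Oas1c was 2.62, 2.72 and 3.12 RPKM in Deiters' cells against 0.0205, 0 and 0.0219 RPKM in pillar cells. This came from 402 reads in Deiters' cells and 2 reads in pillar cells, a ratio of 198 per read sequenced with a 95% counting interval of 54.4 to 1640 that covers counting error only. Oasl1, which in the mouse restrains translation of Irf7, was 1.99, 1.95 and 2.14 RPKM in Deiters' cells (314 reads) and was listed at 0 in every pillar cell library. Neighbouring Oas2 had 3 reads in Deiters' cells and 1 read in pillar cells, and Oas3 had 0 reads in both cell types. Oas3 was thus not detected, and its promoter holds the ISRE match printed above.

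The GTPases include the Mx proteins, which act on viruses, and the immunity-related GTPases (Igtp, Irgm1, Irgm2, Iigp1, Tgtp1 and Tgtp2) and guanylate-binding proteins (Gbp), which are known for their action on pathogen vacuoles. Iigp1 was 14.1, 14.3 and 13.3 RPKM in Deiters' cells against 2.56, 1.90 and 2.62 RPKM in pillar cells, a ratio of 5.90. Tgtp2 was 14.0, 12.1 and 11.9 RPKM in Deiters' cells against 2.66, 2.28 and 2.74 RPKM in pillar cells, a ratio of 4.95. Its near copy Tgtp1 was 2.94, 4.44 and 4.15 RPKM in Deiters' cells against 0.324, 0.458 and 0.0968 RPKM in pillar cells, a ratio of 13.1. These 3 effector GTPases had the largest ratios among the GTPases above 1 RPKM. The regulatory GTPases differed less, Igtp being 21.2 ± 0.973 RPKM in Deiters' cells and 9.99 ± 0.168 RPKM in pillar cells (ratio 2.12) and Irgm1 24.1 ± 0.373 RPKM in Deiters' cells and 14.1 ± 0.304 RPKM in pillar cells (ratio 1.71; SD, n = 3 each). Irgm2 overlapped between the cell types, at 6.31 ± 0.0537 RPKM in Deiters' cells and 6.16 ± 0.393 RPKM in pillar cells. Igtp (chr11:58199556-58207591) lies almost wholly within the annotated span of Irgm2 (chr11:58199618-58222782) on the same strand, so how reads were shared between them is uncertain.

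Gbp3 and Gbp7 ran against the other GTPases. Gbp3 was 1.09, 1.30 and 1.41 RPKM in Deiters' cells against 4.54, 5.05 and 5.18 RPKM in pillar cells, 3.87-fold higher in pillar cells. Gbp7 was 0.124, 0.2496 and 0.191 RPKM in Deiters' cells against 0.379, 0.475 and 0.455 RPKM in pillar cells, 2.32-fold higher in pillar cells. Both genes lie side by side on chromosome 3, both hold an ISRE match, and both were higher in every pillar cell library, Gbp3 being called and Gbp7 not. Gbp2, further along the same cluster, had 5 reads in Deiters' cells and 0 in pillar cells. Mx2 was 0.706, 0.962 and 0.772 RPKM in Deiters' cells against 0.0137, 0.144 and 0 RPKM in pillar cells. Mx1, which is defective in many inbred strains, was 0.371, 0.341 and 0.309 RPKM in Deiters' cells against 0.0951, 0 and 0.0428 RPKM in pillar cells. Both were low, and at these levels the difference rests on few reads in pillar cells.

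The other antiviral effectors included the most abundant genes of the list. Ifi27, a small mitochondrial protein, was the highest of all 50 in Deiters' cells, at 227.7, 234.3 and 227.3 RPKM against 102.1, 103.5 and 101.6 RPKM in pillar cells, a ratio of 2.24. It ranked 205 among all features in Deiters' cells and 578 in pillar cells. Bst2, or tetherin, which holds budding viruses at the membrane, was 34.5, 34.2 and 32.9 RPKM in Deiters' cells against 13.3, 12.1 and 12.9 RPKM in pillar cells, a ratio of 2.66. Both thus showed small spread and no overlap. Ifitm3, which blocks the entry of viruses, was the highest of the 50 in pillar cells, at 95.8, 97.0 and 91.2 RPKM in Deiters' cells against 108.8, 113.9 and 110.6 RPKM in pillar cells, 1.17-fold higher in pillar cells and not called. Ifi44 was 0.182, 0.152 and 0.254 RPKM in Deiters' cells against 0.412, 0.556 and 0.468 RPKM in pillar cells, 2.44-fold higher in pillar cells and not called.

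Of the rest of this group, Xaf1, an antagonist of the apoptosis inhibitor XIAP, was 3.96 ± 0.517 RPKM in Deiters' cells and 1.28 ± 0.313 RPKM in pillar cells (SD, n = 3 each), a ratio of 3.096. Rsad2, or viperin, was 1.49 ± 0.0653 RPKM in Deiters' cells and 0.45 ± 0.0914 RPKM in pillar cells, a ratio of 3.30. Parp14, an ADP-ribosyltransferase, was 0.927 ± 0.0744 RPKM in Deiters' cells and 0.386 ± 0.00756 RPKM in pillar cells, a ratio of 2.40. These 3 were called higher in Deiters' cells. Rtp4 (ratio 1.46), Ifi35 (ratio 1.30) and Eif2ak2 (ratio 1.17), which encodes the kinase PKR, were above in every Deiters' cell library without reaching 2-fold. The group of 10 thus held 5 called higher in Deiters' cells and none called higher in pillar cells. The shares of all genes tested were 14.0% and 14.7%.

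Across the groups, the median log2 difference was 1.83 for the Ifit family, 1.77 for the Oas family, 1.75 for the Isg15 system with Isg20, 1.36 for the GTPases, 1.13 for the transcription factors, 0.82 for the receptors, 0.81 for the other effectors and 0.15 for the sensors. Among the 23 genes with an ISRE match, of which 21 were tested, 13 were called higher in Deiters' cells and 1, Gbp3, higher in pillar cells, with a median of 1.13 and a range of -1.88 to 4.68. Among the 16 without a match, 5 were called higher in Deiters' cells and 0 higher in pillar cells, with a median of 0.86 and a range of -0.97 to 4.41. Of all genes tested, 14.0% were called higher in Deiters' cells and 14.7% higher in pillar cells. Genes higher in Deiters' cells occurred in both sets, and the ranges overlapped almost fully. The set with a match held the close copies Ifit3 and Ifit3b, Tgtp1 and Tgtp2, and Oas1a and Oas1g, all called higher in Deiters' cells. Iigp1, Usp18 and Ifi27 were also called higher there but had no promoter entry, so they were in neither set. The genes were chosen on this contrast, and whether a match goes with the difference was not tested.

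Several members are close copies of each other, and the lanes did not divide their reads in the same way. From genes outside the list, the 12 lanes fell into 2 sets, A with 4 lanes of Deiters' cells and 2 of pillar cells, and B with 2 lanes of Deiters' cells and 4 of pillar cells. All lanes of Deiters' cell library 3 were in set A and all lanes of pillar cell library 2 in set B, so the sets were unbalanced between the cell types. This division was the leading axis of variation within cell types, with 72.0% of that variance over 13220 genes, and 528 of these genes (4.0%) differed more than 2-fold from set A to set B in Deiters' cells and in pillar cells alike. Of the 50 listed genes, 0 did so in both cell types, while Ifit3b and Tgtp1 did so in pillar cells. Of all 100-base words in their transcripts, Ifit3b shared 27.4% with Ifit3, Tgtp1 shared 80% with Tgtp2, and Oas1a shared 40.9% with Oas1g.

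Ifit3b took 18.9% of the sum of Ifit3 and Ifit3b in set A and 37.8% in set B in Deiters' cells, against 16.6% in set A and 36.8% in set B in pillar cells. The sum itself was 87.3 RPKM in set A and 82.2 RPKM in set B in Deiters' cells, against 19.0 RPKM in set A and 18.2 RPKM in set B in pillar cells. The division between the copies moved with the lanes while the difference between the cell types did not. By library, the sum was 84.4, 84.3 and 88.1 RPKM in Deiters' cells against 18.5, 17.7 and 19.3 RPKM in pillar cells, a ratio of 4.63. The summed Tgtp1 and Tgtp2 were 17.0, 16.6 and 16.0 RPKM in Deiters' cells against 2.99, 2.74 and 2.83 RPKM in pillar cells, a ratio of 5.79. The summed Oas1a and Oas1g were 6.41, 5.81 and 6.53 RPKM in Deiters' cells against 2.64, 2.40 and 2.74 RPKM in pillar cells, a ratio of 2.41. The sums had smaller spread than their parts, and the separate values of these 6 genes, including the ratio of 13.1 for Tgtp1, are uncertain. Within sets, the ratio of Tgtp1 was 31.8 in set A and 9.70 in set B, that of Ifit3b was 5.23 in set A and 4.62 in set B, and that of Ifit3 was 4.46 in set A and 4.44 in set B. The ratios over all lanes given above for Ifit3b and Ifit3 lay outside these within-set values.

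**Figure D3:**
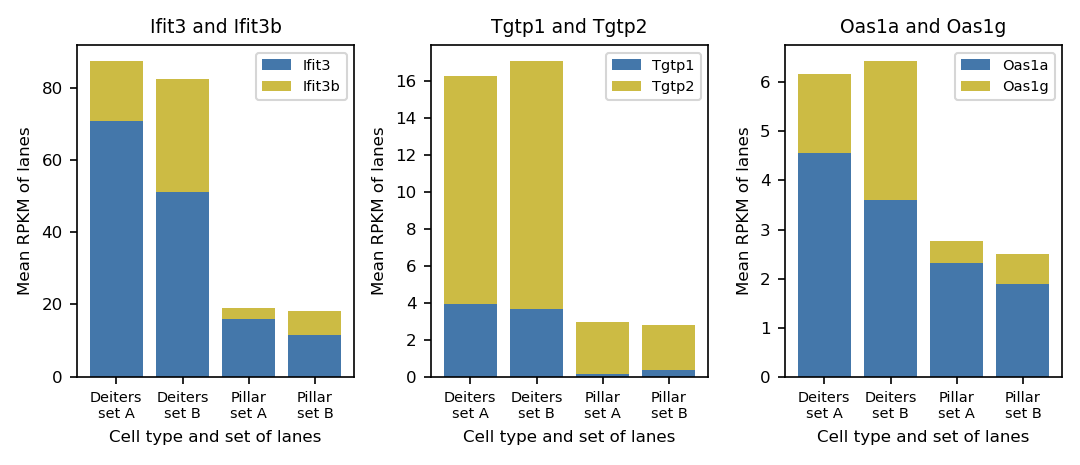
Mean RPKM over lanes (vertical axis) for 3 pairs of near-identical genes, stacked so that each bar's height is the sum of the pair, in lane sets A and B of Deiters' cells and then of pillar cells. For Ifit3 and Ifit3b the split between the colours differs between sets A and B, while the full bars stand at 87.3 and 82.2 RPKM in Deiters' cells and at 19.0 and 18.2 RPKM in pillar cells.

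To see whether the pattern reached beyond the listed genes, 141 other genes of the interferon pathway were read from the same fit. They were set down from knowledge of the pathway and not by how they differed, although earlier results of these data were known. Of the 93 that were tested, 30 were called higher in Deiters' cells and 4 higher in pillar cells, beside the 14.0% and 14.7% of all genes given above, and 59 were not called. Their median log2 difference was 0.56, between that of the listed genes and that of all genes.

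No ligand was detected at more than a trace. Of the 21 interferon genes, which covered the alpha, beta, epsilon, kappa, zeta, gamma and lambda types, 21 were listed at 0 in every pillar cell library and 20 in every Deiters' cell library. The exception was Ifnz, at a mean of 0.0118 RPKM in Deiters' cells, below the 0.0504 RPKM that 3 reads in 1 kb would give. Cxcl9, Cxcl10 and Cxcl11, chemokines induced by interferon, were also listed at 0 in every library. At this depth neither the ligands nor these chemokines were detectable, which does not show that they were absent.

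**Figure D4:**
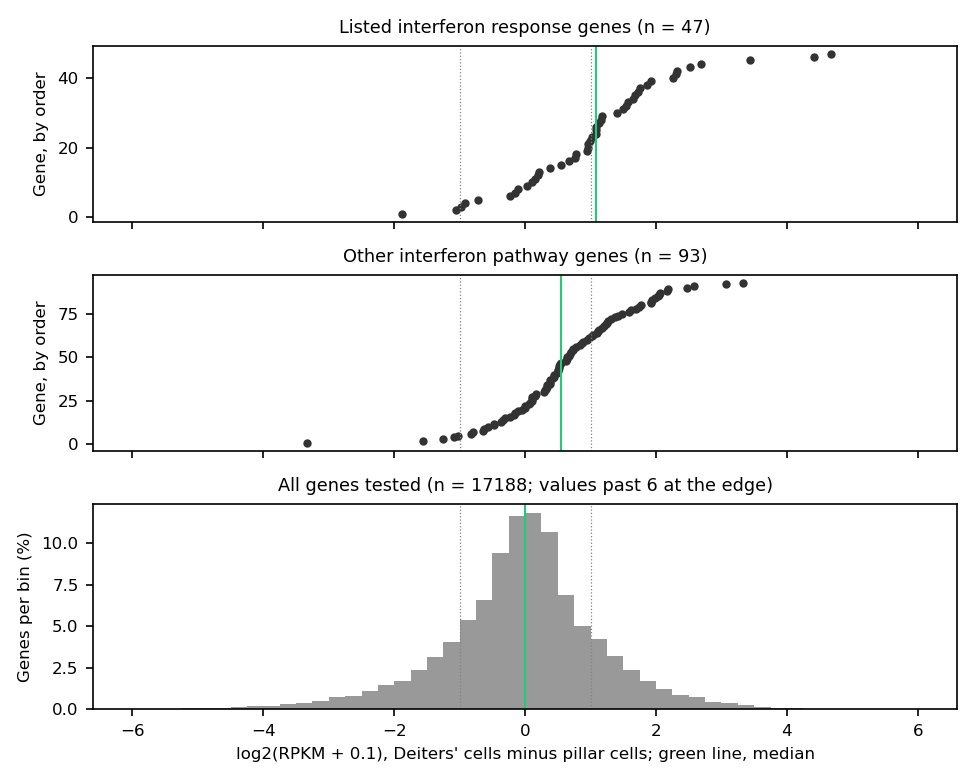
Difference in log2(RPKM + 0.1), Deiters' cells minus pillar cells (horizontal axis), for the 47 listed genes tested (top) and the 93 other pathway genes tested (middle), each a point placed by rank, and as a histogram in percent of genes for all 17188 genes tested (bottom). Green lines mark the medians of 1.08, 0.56 and -0.00, and dotted lines mark 2-fold differences.

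Of the 7 receptors and transducers, 2 were called higher in Deiters' cells and 0 higher in pillar cells. Among all genes tested the shares were 14.0% and 14.7%. Tyk2, the kinase of the Ifnar1 chain, was 2.73 ± 0.373 RPKM in Deiters' cells and 0.587 ± 0.121 RPKM in pillar cells (SD, n = 3 each), a log2 difference of 2.05 (limma adjusted p = 6.1e-05). Ifnlr1, the specific chain of the type III receptor, was 1.58 ± 0.0515 RPKM in Deiters' cells and 0.562 ± 0.196 RPKM in pillar cells, a log2 difference of 1.38 (limma adjusted p = 0.00095). A chain of each of the 3 interferon receptor types was therefore measured in both cell types. Jak2 differed by 0.39 (limma adjusted p = 0.0023) and Jak1 by 0.15 (limma adjusted p = 0.016) on the log2 scale, both below the 2-fold limit. The 7 inhibitors, among them Socs1, Socs3 and Ptpn6, held 0 calls in either direction in limma, the only tool run, although 4 of them had an unadjusted p under 0.05 in the direction of Deiters' cells and 1 in that of pillar cells. Socs3 had an adjusted p of 0.0015 at a ratio of 1.70, and Usp15 an adjusted p of 6.2e-05 at a ratio of 0.562.

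Of the 66 effectors tested, 25 were called higher in Deiters' cells and 4 higher in pillar cells, beside 14.0% and 14.7% of all genes. Guanylate-binding proteins of another cluster were among those leading in Deiters' cells, in contrast to Gbp3 and Gbp7. Gbp10 was 33.4 ± 2.56 RPKM in Deiters' cells and 5.95 ± 0.53 RPKM in pillar cells, Gbp11 was 9.93 ± 0.313 RPKM in Deiters' cells and 1.11 ± 0.212 RPKM in pillar cells, and Gbp6 was 3.84 ± 1.34 RPKM in Deiters' cells and 0.829 ± 0.157 RPKM in pillar cells (SD, n = 3 each). Their log2 differences were 2.47, 3.07 and 2.03 in this order (limma adjusted p = 1.2e-06, 3.8e-06 and 0.00074). These 3 genes are close relatives, so their separate values may share reads, which was not tested. Uba7, which activates Isg15 for its attachment, was 1.54 ± 0.215 RPKM in Deiters' cells and 0.0639 ± 0.029 RPKM in pillar cells, a log2 difference of 3.33 (limma adjusted p = 1.1e-05). Ube2l6, which acts in the next step, was 30.3 ± 0.956 RPKM in Deiters' cells and 30.4 ± 0.22 RPKM in pillar cells (limma adjusted p = 0.87).

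Cmpk2, a nucleotide kinase encoded beside Rsad2, had a log2 difference of 2.18 (limma adjusted p = 3.4e-06), with 20.9 ± 0.934 RPKM in Deiters' cells and 4.54 ± 0.557 RPKM in pillar cells. Lgals9, a galectin, had one of 1.98 (limma adjusted p = 3.6e-07), with 20.2 ± 0.498 RPKM in Deiters' cells and 5.03 ± 0.236 RPKM in pillar cells. Pml, the organiser of nuclear bodies, had one of 2.06 (limma adjusted p = 4.6e-06). The other leading calls higher in Deiters' cells were Helz2 (2.17), Plac8 (1.94), the kinase Ikbke (1.92) and Phf11b, which was listed at 0 in pillar cells. Helz2 and Phf11b were low, at means of 0.377 and 0.50 RPKM in Deiters' cells. With a pseudocount of 1 RPKM their log2 differences were 0.453 and 0.584, below the 2-fold limit. B2m, the light chain of MHC class I, was 175.9 ± 4.47 RPKM in Deiters' cells and 77.7 ± 4.05 RPKM in pillar cells (limma adjusted p = 1.7e-06). All of these were higher in each of the 3 Deiters' cell libraries.

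The 4 other pathway genes called higher in pillar cells were Slfn1, Slfn2, Ifit1bl1 and Ifitm1. Slfn1, of the Schlafen family, was 0.10, 0.139 and 0.0287 RPKM in Deiters' cells against 1.83, 1.71 and 1.71 RPKM in pillar cells, a log2 difference of -3.34 (limma adjusted p = 3e-05). Slfn2 was 1.03, 0.686 and 1.22 RPKM in Deiters' cells against 2.20, 2.20 and 2.95 RPKM in pillar cells, a log2 difference of -1.26 (limma adjusted p = 0.002). Ifitm1, a relative of Ifitm3, was 4.74, 4.18 and 3.87 RPKM in Deiters' cells against 8.65, 9.86 and 7.78 RPKM in pillar cells, a log2 difference of -1.02 (limma adjusted p = 2e-04). Ifit1bl1 was listed at 0 in Deiters' cells and was 0.109 to 0.115 RPKM in pillar cells (limma adjusted p = 0.00069). The call for Ifitm1 ended without Deiters' cell library 3 (-0.955) and without pillar cell library 2 (-0.933), in lane set B alone (-0.867), under quantile scaling (-0.98) and with a pseudocount of 1 RPKM (-0.889). That for Slfn2 ended with lane 2 of each library only, that for Ifit1bl1 with lane 1 only and in lane set A alone, and both ended with a pseudocount of 1 RPKM.

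Blood and immune cells carry many interferon response genes, so their markers were read in the same libraries. The calls stand beside 14.0% of all genes tested called higher in Deiters' cells and 14.7% higher in pillar cells. For 38.9% of all genes every Deiters' cell library lay above every pillar cell library, and the reverse held for 37.6%. Of 13 macrophage markers, limma called 0 higher in Deiters' cells (1 at an unadjusted p under 0.05) and 6 higher in pillar cells, with sums of 70.2 to 73.7 RPKM in Deiters' cells against 135 to 142 RPKM in pillar cells, and Adgre1 was listed at 0 in Deiters' cells. Of the 6 markers of plasmacytoid dendritic cells, of which 3 were tested, limma called 0 higher in Deiters' cells (1 at an unadjusted p under 0.05) and 1, Siglech, higher in pillar cells, with sums of 3.02 to 3.14 RPKM in Deiters' cells against 4.52 to 4.88 RPKM in pillar cells. Most of the macrophage sum was Lyz2, and without it the sum was 26.8 to 31.1 RPKM in Deiters' cells against 37.7 to 39.6 RPKM in pillar cells. By library, 1 macrophage marker (C1qc) was higher in Deiters' cells, 8 were higher in pillar cells and 4 overlapped (Csf1r, C1qa, C1qb and Cd68). Of the plasmacytoid set, Irf8 was higher in every Deiters' cell library, at a ratio of 1.77, and Siglech and Tcf4 in every pillar cell library. The 7 eosinophil markers summed to 89.7 to 92.3 RPKM in Deiters' cells against 0.0687 to 0.565 RPKM in pillar cells, with 6 called higher in Deiters' cells. Most of this sum was Prg2, at 66.4, 68.1 and 68.6 RPKM in Deiters' cells against 0, 0.125 and 0 RPKM in pillar cells. Of 10 neutrophil markers, 3 were called higher in Deiters' cells and 7 higher in pillar cells, with sums of 268 to 295 RPKM in Deiters' cells against 531 to 549 RPKM in pillar cells. The 3 were Elane, Mpo and Prtn3, and the 7 were S100a8, S100a9, Ngp, Ltf, Camp, Ly6g and Retnlg. Elane, of the primary granules, was 58.2, 59.6 and 57.4 RPKM in Deiters' cells against 11.0, 9.84 and 9.58 RPKM in pillar cells. Ngp went the other way, at a mean of 8.58 RPKM in Deiters' cells and 127.2 RPKM in pillar cells. S100a9 did so too, at a mean of 73.8 RPKM in Deiters' cells and 169.6 RPKM in pillar cells.

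Lymphocyte and vessel markers were also read, beside the same shares of all genes called. The 8 T and NK cell markers summed to 4.48 to 5.28 RPKM in Deiters' cells against 1.18 to 1.41 RPKM in pillar cells, with 5 at 0 in both. Nearly all of this sum was Nkg7, at a mean of 4.81 RPKM in Deiters' cells and 1.27 RPKM in pillar cells. Nkg7 was the only 1 of the 8 that was tested, and it was called higher in Deiters' cells. The 5 B cell markers summed to 5.06 to 5.67 RPKM in Deiters' cells against 22.5 to 24.8 RPKM in pillar cells, with 4 called higher in pillar cells. The 6 endothelial markers summed to 1.16 to 1.4 RPKM in Deiters' cells against 2.97 to 3.33 RPKM in pillar cells, with 1 called higher in Deiters' cells and 2 higher in pillar cells. Markers of other cell types thus differed between the libraries of the 2 cell types in both directions. Whether they came from other cells or from the collected cells, and their part in the interferon response values, was not tested.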

How the data were processed

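RNA-seq covered 3 libraries of Deiters' cells and 3 of pillar cells from CBA/J mice, each run in 2 lanes. The authors used CLC Genomics Workbench for mapping of paired reads, with GRCm38 (mm10) as the genome, and deposited RPKM for 48440 features. The annotation release was not given in the sources used here. Features were matched by identifier to GENCODE M21 (48058 matched). RPKM of the 2 lanes were averaged, and reads behind the values were recovered from their steps and exon lengths, whole to within 0.01 for 14383 of 20010 features (71.9%). Reads per library were 18641354 to 21557584. Columns of the table that belonged to no listed sample numbered 0.

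Genes whose mean passed 0.1 RPKM in at least 1 cell type were fitted by limma 3.58.1 under R 4.3.3 (two-sided, eBayes with a trend) on log2(RPKM + 0.1), so ratios of low genes are understated on that scale. Benjamini-Hochberg adjustment covered all genes tested. Single-value exact tests of 3 against 3 libraries cannot go below p = 0.1 and were not used. Ratios in the text are ratios of mean RPKM. The fit was run on simulated data with known changes in genes above 1 RPKM and with noise independent between genes and libraries. That simulation did not cover changes in genes below 1 RPKM or the differences between lane sets. Promoters came from RefSeq on GRCm38.p6. The strain mapped, CBA/J, is not that of the reference genome, and the effect of this was not tested.

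The 50 genes and all other lists were chosen with earlier results of these data known. Values in every library were printed for genes above 1 RPKM that differed at least 4-fold, for the receptors and for genes higher in pillar cells, with others as examples of their role. Of the other pathway genes, the ligands, Jak1, Jak2, Tyk2 and up to 12 called genes with the largest log2 differences in each direction were named, and further ones (Ifnlr1, Il10rb, Socs3, Usp15, Ube2l6, B2m and the Cxcl genes) were chosen after their values were seen. Alternatives varied the pseudocount, the filter, the scaling, the lanes, the libraries and the replicate block. Some genes of the pathway list are not reported by name here.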

Additional observations from a re-analysis of the deposited data

How the results depend on the processing

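Precision is limited by 3 libraries per cell type and, for genes near 0.1 RPKM, by few reads. Among the listed genes, 25 were called higher in Deiters' cells, and this was 16 with a pseudocount of 1 RPKM, by which low genes are shrunk, and 22 with 3 pairs of near-identical genes summed, which was chosen after seeing the data and leaves 3 fewer genes. The genes lost with the pseudocount of 1 RPKM were Stat2, Irf1, Irf7, Oas1a, Oas1g, Mx1, Mx2, Rsad2 and Parp14. Leaving out 1 library gave 24 to 26, lane sets A and B alone 23 each, and quantile scaling 28. The 2 called higher in pillar cells were 4 with a pseudocount of 0.01 RPKM and 1 with a pseudocount of 1 RPKM, with a filter at 1 RPKM, with quantile scaling, in lane set A alone and with the replicate block, and 1 to 2 with 1 library left out. The gene lost with each of these was Zbp1, with log2 differences of -1.06 under the block and -0.91 under quantile scaling. Of the other pathway genes, the 30 called higher in Deiters' cells were 14 with a pseudocount of 1 RPKM, 19 with the filter at 1 RPKM, and 27 to 31 with 1 library left out. The 4 called higher in pillar cells were 1 with a pseudocount of 1 RPKM, 2 with lane 2 of each library only, and 3 to 4 with 1 library left out. Over all genes, calls higher in Deiters' cells numbered 2404, and 778 with a pseudocount of 1 RPKM, and 1224 with the filter at 1 RPKM, and calls higher in pillar cells numbered 2534, and 1001 and 1572 under the same settings. Among the single genes recomputed under these settings, none of the called differences changed sign, and called genes outside that set were not recomputed one by one. Libraries share a number between the cell types, and the main fit did not use this number as a block. The deviations of same-numbered libraries had r = -0.286, 0.38 and 0.318 across genes. The lane sets led the variation within cell types and were unevenly spread over the libraries, so these values cannot show whether libraries were paired. With the block, 25 listed and 29 other pathway genes were called higher in Deiters' cells and 1 and 4 higher in pillar cells. The cause of these changes was not tested unless stated.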
